A study of Mus musculus with 8 samples.

Results

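The genes described are 33 of the 52636 in the expression table, chosen by name as the sterol and fatty acid synthesis genes with the SREBP regulators. They comprise 18 enzymes of the sterol branch, 10 enzymes of the fatty acid branch, and 5 regulators and carriers (Srebf1, Srebf2, Scap, Insig1 and Stard4). All 33 were found once each, and all were at 1 CPM (a level relative to the library total) or more in every library, so each entered the tests. RNA was sequenced from esophageal organoids of wild-type mice, which are epithelial cultures grown in a basement membrane gel, with 2 libraries in each of 4 groups. The groups were BMP4 at 20 ng/ml with A8301 at 500 nM, TGFb1 at 1 ng/ml, TGFb1 at 1 ng/ml with BMP4 at 20 ng/ml, and A8301 alone at 500 nM as the control. A8301 is an inhibitor of TGFb type I receptors, and it is called the inhibitor here. Treatment lasted 72 h, renewed every 24 h, in cultures of 13 days. The labels list no inhibitor for both TGFb1 groups, so in their comparisons with inhibitor groups the added ligand and the absent inhibitor cannot be told apart. Whether the paired libraries of a group stem from different animals is not stated, and p-values then describe only the spread between the libraries, which may be technical.

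Cells make cholesterol from acetyl-CoA through mevalonate, isoprenoid phosphates, squalene and lanosterol, and they make fatty acids from the same acetyl-CoA through malonyl-CoA. Both branches are controlled by SREBP transcription factors, which are made as membrane proteins, are escorted from the endoplasmic reticulum to the Golgi by SCAP, and are released there by site-1 and site-2 proteases. INSIG proteins hold SCAP in the endoplasmic reticulum when sterols are plentiful. In mammals SREBP-2, from Srebf2, acts mainly on sterol genes and SREBP-1c, from Srebf1, mainly on fatty acid genes. In a stratified squamous epithelium, lipids are made for membranes of dividing cells and for the outer differentiated layers.

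SREBPs bind sterol regulatory elements, commonly next to a CCAAT box bound by NF-Y, in the promoters of their target genes. Promoters of 5 members are shown because these genes span the patterns found. Hmgcs1, Msmo1 and Lss are sterol genes that were lower under TGFb1, Sc5d is a sterol gene that was higher, and Acss2 is a fatty acid gene that was higher. Each line runs 5′ to 3′ from 250 bases before to 50 bases after the start of the gene and comes from RefSeq on GRCm38.p6. Capitals mark CCAAT on either strand (ATTGG when read on the other) and TCACNNCAC on either strand, a relaxed form of the sterol regulatory element word TCACNCCAC.

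Hmgcs1 (chr13:119690101-119690400, + strand): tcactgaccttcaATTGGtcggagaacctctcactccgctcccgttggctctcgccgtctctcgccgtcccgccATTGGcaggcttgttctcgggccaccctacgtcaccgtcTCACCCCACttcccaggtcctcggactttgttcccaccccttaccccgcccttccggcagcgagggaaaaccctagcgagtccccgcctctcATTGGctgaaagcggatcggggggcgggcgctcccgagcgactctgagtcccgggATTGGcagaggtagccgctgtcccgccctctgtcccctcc

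Msmo1 (chr8:64733529-64733828, - strand): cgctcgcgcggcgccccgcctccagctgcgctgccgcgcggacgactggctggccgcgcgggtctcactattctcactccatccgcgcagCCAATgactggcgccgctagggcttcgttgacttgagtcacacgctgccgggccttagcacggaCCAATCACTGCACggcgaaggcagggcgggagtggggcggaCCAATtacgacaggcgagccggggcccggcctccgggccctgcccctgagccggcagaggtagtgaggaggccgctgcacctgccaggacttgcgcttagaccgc

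Lss (chr10:76531355-76531654, + strand): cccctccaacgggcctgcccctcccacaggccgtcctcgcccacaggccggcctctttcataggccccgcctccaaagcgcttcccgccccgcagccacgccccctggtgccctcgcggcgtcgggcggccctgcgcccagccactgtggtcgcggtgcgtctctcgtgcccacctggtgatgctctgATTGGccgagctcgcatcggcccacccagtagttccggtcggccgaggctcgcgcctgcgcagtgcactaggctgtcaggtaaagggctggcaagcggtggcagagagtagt

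Sc5d (chr9:42264251-42264550, - strand): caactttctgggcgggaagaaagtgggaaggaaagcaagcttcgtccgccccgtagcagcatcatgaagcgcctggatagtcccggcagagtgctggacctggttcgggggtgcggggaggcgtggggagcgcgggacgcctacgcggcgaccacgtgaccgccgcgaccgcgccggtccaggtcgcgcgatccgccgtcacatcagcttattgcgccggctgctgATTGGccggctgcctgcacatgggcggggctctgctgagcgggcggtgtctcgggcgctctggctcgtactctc

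Acss2 (chr2:155517793-155518092, + strand): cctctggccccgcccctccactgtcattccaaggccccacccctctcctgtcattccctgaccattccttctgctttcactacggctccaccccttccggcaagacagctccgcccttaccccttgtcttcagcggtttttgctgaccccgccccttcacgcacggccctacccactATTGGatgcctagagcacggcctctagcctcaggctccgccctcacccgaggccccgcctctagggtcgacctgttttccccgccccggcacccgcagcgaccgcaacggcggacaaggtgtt

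Of the 33 members, 26 had a promoter in the RefSeq table. The word TCACNCCAC, searched on both strands, lay in the promoter of 1 of these, Hmgcs1, starting 137 bases before the start site, as against 1.44% of 27025 genes. The relaxed word TCACNNCAC, which contains it, lay in 4 of 26, all sterol genes (Dhcr7, Hmgcs1, Hsd17b7 and Msmo1), which is 26.7% of the 15 sterol genes with a promoter and 4.37% of all genes. In Msmo1 this word shares its first base with a CCAAT box. CCAAT lay in 14 of 15 sterol genes, in 4 of 7 fatty acid genes and in 41.1% of all genes. Acat2 was the sterol gene without it. These matches describe letters in a window and no binding was measured.

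Under TGFb1 with BMP4, 12 of 18 sterol enzymes fell relative to the inhibitor group, where 18.4% of all tested genes fell, and Lss, Dhcr7, Pmvk and Fdps were among them. Their 18 genes had a median log2 fold change of -1.31. The fatty acid genes passed in both directions: 3 of 10 fell and 2 rose (27.6% of all tested genes rose), with a median of -0.15. Over all tested genes the median was 0.13. The rises, of Scd1 and Acaca, were lost with median-of-ratios scaling of the libraries (adjusted p = 0.0573 and 0.157, limma). The fatty acid median was -0.29 with that scaling. Under TGFb1 alone 9 of 18 sterol enzymes fell and 2 rose, where 20.0% of all tested genes fell and 20.0% rose. Under BMP4 with inhibitor 2 of 18 fell, where 2.91% of all tested genes did, and each of the 12 sterol genes had its lowest group mean under TGFb1 with BMP4.

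**Figure D1:**
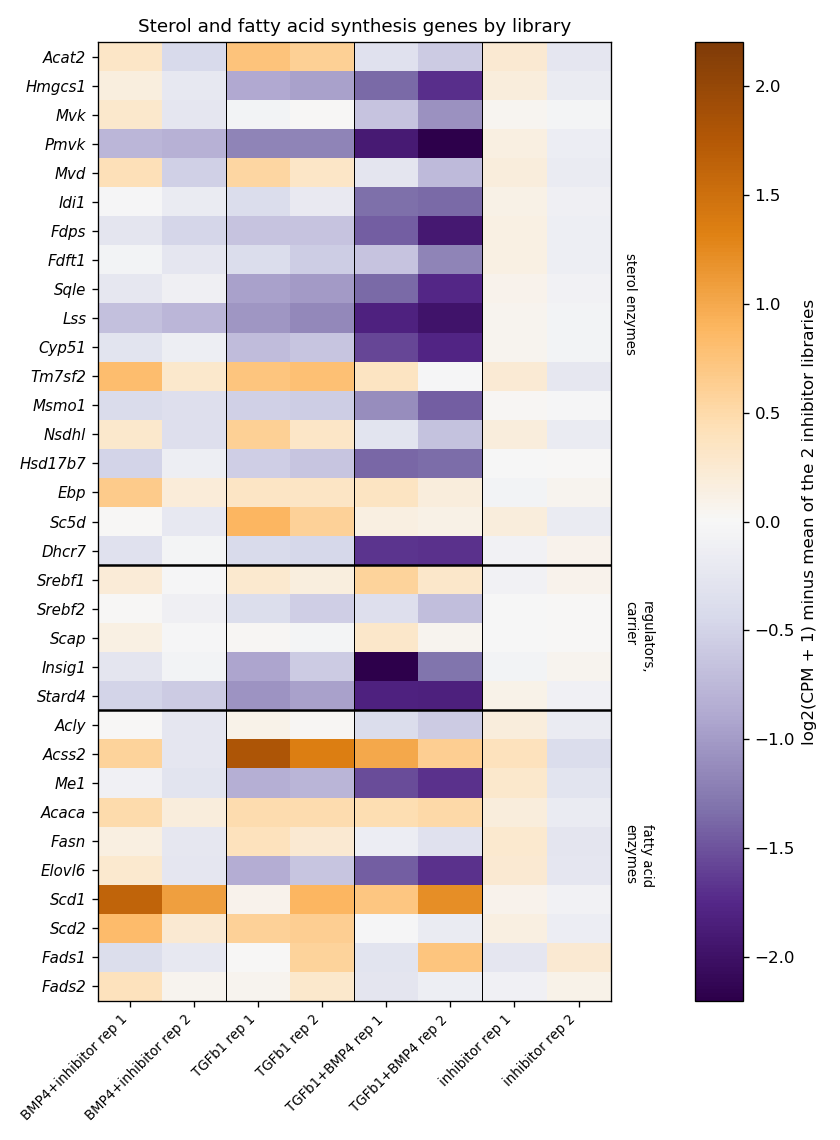
Level of each of the 33 genes in each of 8 libraries, as log2(CPM + 1) minus the mean of the inhibitor libraries, with genes grouped by branch and colour giving the difference. Most sterol genes are below the inhibitor mean in both TGFb1 with BMP4 libraries, whose median differences over the 18 sterol genes are -1.22 and -1.36, while fatty acid genes lie on both sides.

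Levels of different genes can be set side by side only per length, taken here as all exon bases annotated for a gene in any transcript. Where the transcripts present use only part of these bases, the level per length is understated, so the ranking also depends on the annotation. Per kilobase of exon, Scd2 was the most abundant member, with a mean of 248 CPM per kb under BMP4 with inhibitor, 253 under TGFb1, 155 under TGFb1 with BMP4 and 167 under inhibitor. Hmgcs1, which makes HMG-CoA at the head of the mevalonate pathway, was at 135, 72.2, 47.1 and 138 CPM per kb in the same order of groups. The lowest members in the inhibitor group were Acaca at 5.09 and Tm7sf2 at 6.03 CPM per kb. Acaca shares 30.4% of its 50-base words with other genes, mostly the predicted gene Gm5182 (at most 1.15 CPM), and Me1 shares 22.9%, mostly with Gm7049 (at most 11.5 CPM), so the values of both are uncertain to that extent.

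In TGFb1 organoids compared with inhibitor organoids, 17 of 33 members passed the test (limma on log2(CPM + 1), Benjamini-Hochberg adjusted over 16180 genes, threshold 0.05), with 4 higher and 13 lower. That is 51.5% of the members, and 40.0% of all tested genes passed in this comparison, 20.0% higher and 20.0% lower. In the sterol branch 9 of 18 fell and 2 rose, with a median log2 fold change of -0.46 beside -0.01 for all tested genes.

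The largest fall was in Pmvk, which phosphorylates mevalonate phosphate. Pmvk had 41.4 and 41.4 CPM in TGFb1 libraries, against 106 and 85.3 CPM in inhibitor libraries, a log2 fold change of -1.18 ± 0.18 (SE, n = 2 each, adjusted p = 0.00425, limma). Lss closes squalene epoxide into lanosterol, the first sterol of the pathway. Lss (chromosome 10, 76531588 to 76557138, GRCm38) had 138 and 127 CPM in TGFb1 libraries, against 294 and 273 CPM in inhibitor libraries, a log2 fold change of -1.09 ± 0.11 (adjusted p = 0.000942, limma). For both genes each TGFb1 library lay below each inhibitor library. For called genes such lack of overlap is a description, here and below, and adds no support to the calls. Sqle, the squalene epoxidase and an oxygen-requiring control point, had 212 and 206 CPM in TGFb1 libraries, against 433 and 393 CPM in inhibitor libraries (log2 fold change -0.98 ± 0.15, adjusted p = 0.00381, limma). Hmgcs1 had 338 and 325 CPM in TGFb1 libraries, against 708 and 557 CPM in inhibitor libraries (-0.92 ± 0.19, adjusted p = 0.0116, limma). Again the groups did not overlap. The other falls were smaller: Cyp51, the lanosterol demethylase, changed by -0.68 ± 0.12, Fdps by -0.64, Hsd17b7 by -0.58, Msmo1 by -0.54 and Dhcr7 by -0.44 on the log2 scale.

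The sterol enzymes that rose were Sc5d and Tm7sf2. Sc5d, the lathosterol desaturase that acts just before Dhcr7, had 196 and 161 CPM in TGFb1 libraries, against 120.1 and 93.6 CPM in inhibitor libraries (log2 fold change 0.74 ± 0.16, adjusted p = 0.0138, limma). Tm7sf2, a sterol reductase acting after Cyp51 whose exons overlap those of Vps51 over 12.1% of their bases, had 43.9 and 45.9 CPM in TGFb1 libraries, against 31.0 and 22.1 CPM in inhibitor libraries (0.76 ± 0.24, adjusted p = 0.0455, limma). In both genes the TGFb1 libraries were the higher ones with no overlap. The pathway thus held called genes of both directions within its late steps, since Dhcr7, the last enzyme, had 77.6 and 75.5 CPM in TGFb1 libraries, against 98.6 and 111 CPM in inhibitor libraries (adjusted p = 0.0288, limma).

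In the fatty acid branch 2 of 10 genes were called higher and 2 lower under TGFb1, where 20.0% of all tested genes rose and 20.0% fell. Log2 fold changes were above 0 in 8 of the 10, with a median of 0.30. Acss2, which makes acetyl-CoA from acetate, had 342 and 250.5 CPM in TGFb1 libraries, against 129 and 74.5 CPM in inhibitor libraries, the largest rise of any member (log2 fold change 1.57 ± 0.36, adjusted p = 0.0163, limma). Acaca, the carboxylase that makes malonyl-CoA, rose by 0.48 ± 0.15 (adjusted p = 0.0491, limma). Me1, the malic enzyme that supplies NADPH, had 201 and 208 CPM in TGFb1 libraries, against 437 and 296 CPM in inhibitor libraries (-0.81 ± 0.19, adjusted p = 0.0163, limma). Elovl6, an elongase of long saturated chains, had 35.0 and 40.8 CPM in TGFb1 libraries, against 76.3 and 53.2 CPM in inhibitor libraries (-0.74 ± 0.24, adjusted p = 0.0473, limma). These 4 genes had TGFb1 libraries entirely above or entirely below the inhibitor libraries, which is given as a description without the share of all genes. Fasn, the fatty acid synthase itself, did not pass, at 589 and 538 CPM in TGFb1 libraries, against 543 and 377 CPM in inhibitor libraries.

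Among the regulators, Srebf2 fell and Srebf1 did not pass. Srebf2 had 439 and 391 CPM in TGFb1 libraries, against 564 and 576 CPM in inhibitor libraries (log2 fold change -0.46 ± 0.14, adjusted p = 0.0418, limma). Srebf1 had 142 and 132 CPM in TGFb1 libraries, against 112 and 124 CPM in inhibitor libraries (0.22, adjusted p = 0.254, limma). Stard4, a cytosolic sterol carrier and SREBP target, had 52.5 and 56.5 CPM in TGFb1 libraries, against 118 and 104 CPM in inhibitor libraries (-1.01 ± 0.11, adjusted p = 0.00123, limma). The TGFb1 libraries were lower for Srebf2 and Stard4 and higher for Srebf1, without overlap in any of the 3. For Srebf1, whose test did not pass, lack of overlap between so few libraries does not by itself show a change. The share of all genes without overlap is not given for this comparison. Scap had a log2 fold change of -0.01.

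The calls of Lss, Stard4, Sqle, Pmvk and Cyp51 held with each of the 8 libraries left out, while the number of members called was 5 without TGFb1 replicate 1, 7 without TGFb1 replicate 2, 8 without inhibitor replicate 1 and 7 without inhibitor replicate 2. Median-of-ratios scaling ended the calls of Fdps, Tm7sf2, Srebf2, Acaca and Elovl6 (adjusted p = 0.0595, 0.0626, 0.0946, 0.0746 and 0.0609). With the replicate number as a block 7 members rose and 15 fell, beside 53.1% of all genes (26.7% higher and 26.4% lower), and the added calls were Acat2, Nsdhl and Scd2 (higher) and Fdft1 and Insig1 (lower), with adjusted p of 0.0124, 0.0123, 0.0165, 0.0130 and 0.0192.

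**Figure D2:**
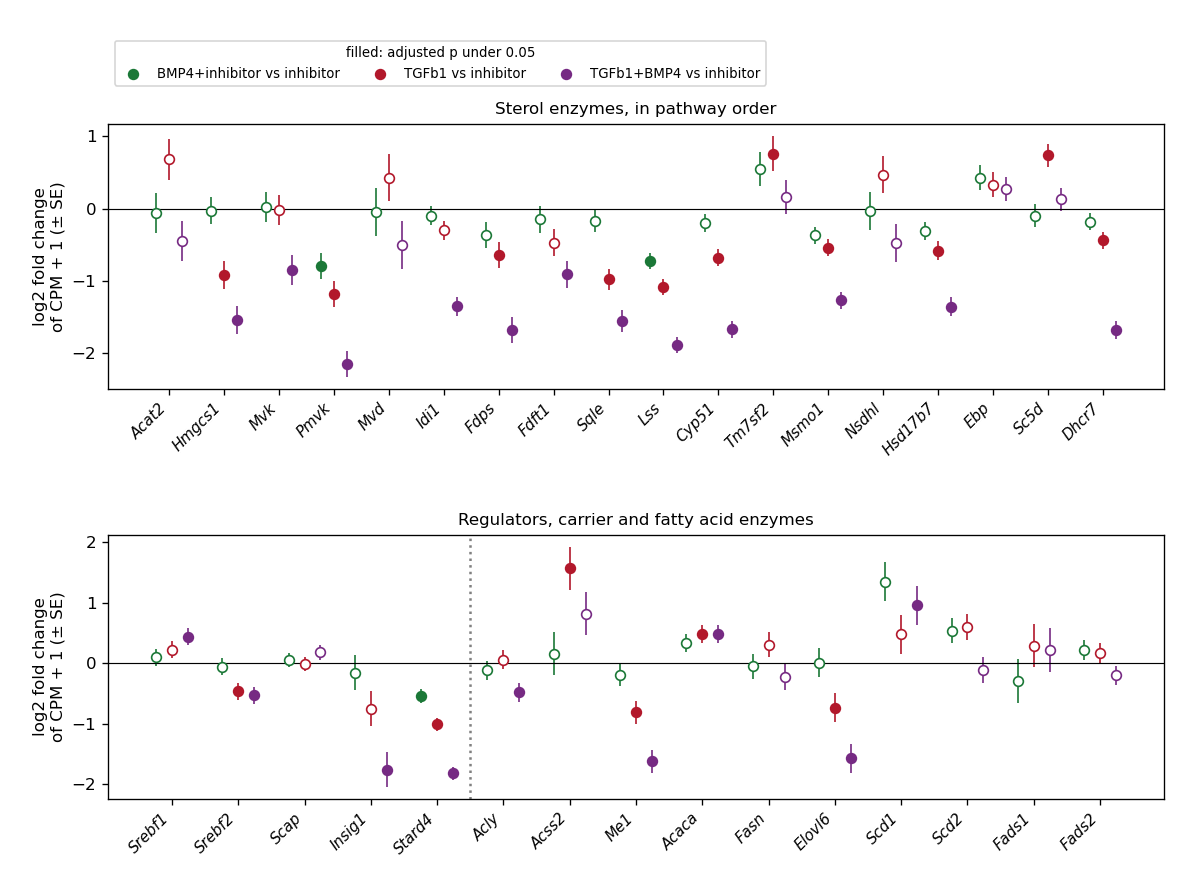
Log2 fold change of each member for each of the 3 treated groups against inhibitor, as differences of mean log2(CPM + 1), with bars of 1 SE and filled points for genes past an adjusted p of 0.05. Sterol genes reach -2.15 (Pmvk) for TGFb1 with BMP4 against inhibitor, while Acss2 reaches 1.57 for TGFb1 against inhibitor.

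In TGFb1 with BMP4 organoids compared with inhibitor organoids, 21 of 33 members passed, 3 higher and 18 lower. This is 63.6% of the members, where 46.0% of all tested genes passed, 27.6% higher and 18.4% lower (4469 and 2980 genes, but 3450 and 3694 with median-of-ratios scaling). In the sterol branch 12 of 18 fell and 0 rose (12 were also at an unadjusted p under 0.05, all lower). The falls covered 5 of 7 mevalonate and isoprenoid enzymes and 7 of 11 enzymes from squalene to cholesterol.

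Lss had 80.4 and 71.7 CPM in TGFb1 with BMP4 libraries, against 294 and 273 CPM in inhibitor libraries, a log2 fold change of -1.89 ± 0.11 (adjusted p = 0.000139, limma). Pmvk had 24.6 and 17.2 CPM in TGFb1 with BMP4 libraries, against 106 and 85.3 CPM in inhibitor libraries, the largest fall of any member (-2.15 ± 0.18, adjusted p = 0.000403, limma). Cyp51 had 122 and 106 CPM in TGFb1 with BMP4 libraries, against 383 and 348 CPM in inhibitor libraries (-1.67 ± 0.12, adjusted p = 0.000247, limma). In all 3 genes the higher TGFb1 with BMP4 library was under the lower inhibitor library. Dhcr7, which makes cholesterol from its last precursor, had 32.0 and 31.6 CPM in TGFb1 with BMP4 libraries, against 98.6 and 111 CPM in inhibitor libraries (-1.68 ± 0.12, adjusted p = 0.000257, limma). Hmgcs1 had 243 and 190.2 CPM in TGFb1 with BMP4 libraries, against 708 and 557 CPM in inhibitor libraries (-1.54 ± 0.19, adjusted p = 0.00141, limma). These 2 genes also had no overlap between groups. Idi1, the isomerase of the isoprenoid units, had 19.6 and 19.0 CPM in TGFb1 with BMP4 libraries, against 55.3 and 46.7 CPM in inhibitor libraries (-1.35 ± 0.13, adjusted p = 0.000604, limma).

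The other sterol genes that fell were Fdps, Sqle, Hsd17b7, Msmo1, Fdft1 and Mvk, with log2 fold changes of -1.68, -1.56, -1.36, -1.27, -0.91 and -0.85. Fdps makes farnesyl diphosphate, the branch point to sterols and prenyl groups, and 26.7% of its exon bases overlap the exons of a predicted gene on the same strand, Gm43738, so reads may be split between them and its values are uncertain. Gm43738 had 195 and 143 CPM in TGFb1 with BMP4 libraries, against 507 and 429.6 CPM in inhibitor libraries. The 6 sterol enzymes that did not pass were Acat2, Mvd, Nsdhl, Tm7sf2, Ebp and Sc5d, with log2 fold changes of -0.45, -0.50, -0.48, 0.16, 0.27 and 0.13. Sc5d, higher under TGFb1 alone, had 117 and 115 CPM in TGFb1 with BMP4 libraries, against 120.1 and 93.6 CPM in inhibitor libraries, which lie on both sides. Acat2, which condenses acetyl-CoA, shares 39.1% of its 50-base words with Acat3, so its values are uncertain too.

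In the fatty acid branch the genes that fell were Me1, Elovl6 and Acly, and those that rose were Scd1 and Acaca. Me1 had 123 and 111 CPM in TGFb1 with BMP4 libraries, against 437 and 296 CPM in inhibitor libraries (log2 fold change -1.62 ± 0.19, adjusted p = 0.0011, limma). Elovl6 had 22.8 and 19.0 CPM in TGFb1 with BMP4 libraries, against 76.3 and 53.2 CPM in inhibitor libraries (-1.57 ± 0.24, adjusted p = 0.00289, limma). Scd1, a desaturase that makes oleate, had 146 and 208 CPM in TGFb1 with BMP4 libraries, against 93.5 and 84.6 CPM in inhibitor libraries (0.96 ± 0.32, adjusted p = 0.0456, limma). All 3 separated the groups, Me1 and Elovl6 with the TGFb1 with BMP4 libraries below and Scd1 with them above. Acly, which makes cytosolic acetyl-CoA from citrate, changed by -0.48 (adjusted p = 0.0477, limma) and Acaca by 0.48 (adjusted p = 0.0419, limma). Scd2, the most abundant member, had 891 and 800.3 CPM in TGFb1 with BMP4 libraries, against 1012 and 817 CPM in inhibitor libraries, with overlap, and did not pass (adjusted p = 0.7, limma). Fasn, Fads1, Fads2 and Acss2 did not pass either, with log2 fold changes of -0.23, 0.22, -0.20 and 0.82.

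The regulators moved in both directions. Insig1, a sensitive SREBP target that retains SCAP, had 11.7 and 23.1 CPM in TGFb1 with BMP4 libraries, against 55.7 and 60.8 CPM in inhibitor libraries (log2 fold change -1.76 ± 0.29, adjusted p = 0.00425, limma). Stard4 had 30.7 and 30.3 CPM in TGFb1 with BMP4 libraries, against 118 and 104 CPM in inhibitor libraries (-1.82 ± 0.11, adjusted p = 0.000145, limma). Srebf2 had 444 and 350.2 CPM in TGFb1 with BMP4 libraries, against 564 and 576 CPM in inhibitor libraries (-0.53 ± 0.14, adjusted p = 0.0232, limma). The TGFb1 with BMP4 libraries were the lower ones for all 3, without overlap. Srebf1 had 177 and 145 CPM in TGFb1 with BMP4 libraries, against 112 and 124 CPM in inhibitor libraries, and rose by 0.44 ± 0.14 (adjusted p = 0.0419, limma). Scap had 274 and 232 CPM in TGFb1 with BMP4 libraries, against 222 and 223 CPM in inhibitor libraries, and did not pass (adjusted p = 0.234, limma).

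Of the 21 calls, 14 remained whichever library was omitted, including Lss, Stard4, Cyp51, Dhcr7, Pmvk, Me1 and Insig1, and with median-of-ratios scaling the rises of Scd1, Acaca and Srebf1 were lost (adjusted p = 0.0573, 0.157 and 0.203), which left 0 members higher and 18 lower. That scaling shifted the median log2 fold change of all genes by -0.12 here, and by -0.11 to -0.12 in the other comparisons of TGFb1 with BMP4 and in the interaction, with the sterol median then at -1.44. With the replicate block Acss2 rose (adjusted p = 0.00254), Mvd, Acat2 and Nsdhl fell (adjusted p = 0.0477, 0.0493 and 0.0096), and 58.9% of all genes passed, 35.2% higher and 23.7% lower.

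**Figure D3:**
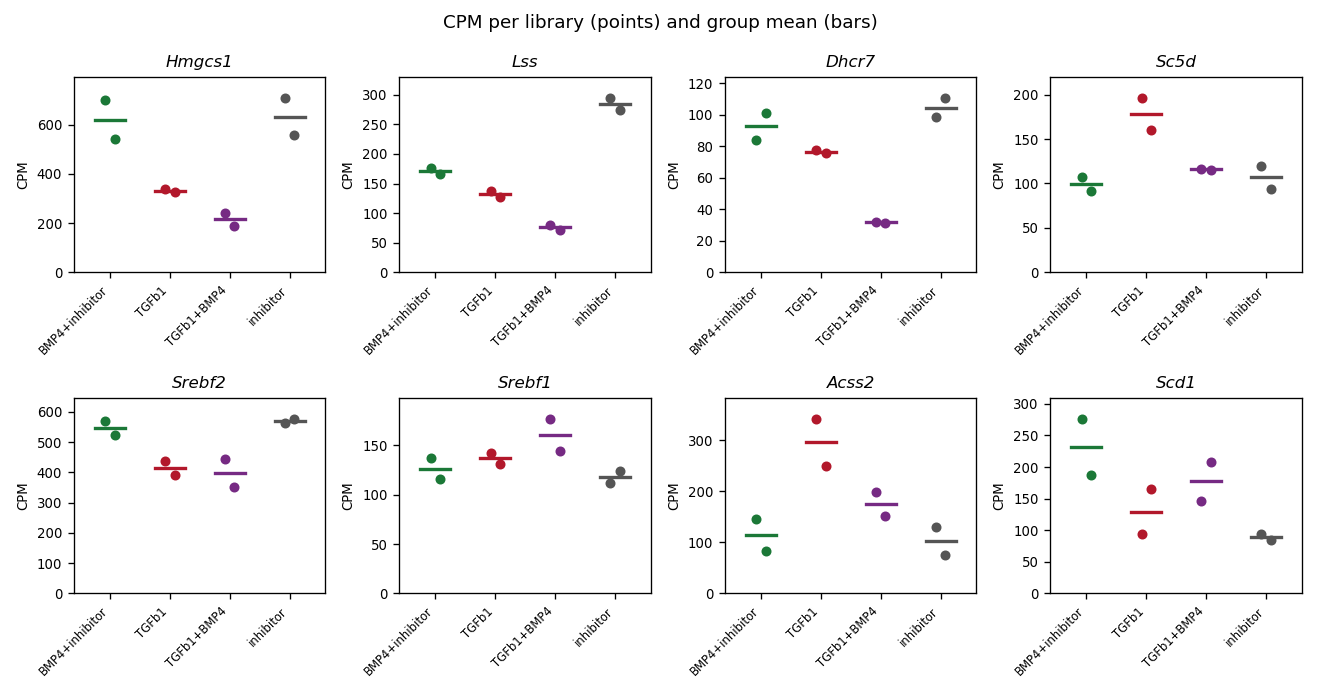
CPM of 8 members in each library (points) and the mean of each group (bars), with groups on the x axis and CPM from 0 on the y axis. Lss and Dhcr7 are lowest in the TGFb1 with BMP4 libraries, at 80.4 and 71.7 CPM and at 32.0 and 31.6 CPM, while Sc5d and Acss2 are highest in the TGFb1 libraries.

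TGFb1 with BMP4 compared with TGFb1 alone isolates the addition of BMP4 without the inhibitor. Here 8 of 33 members passed, all lower, which is 24.2% of the members, where 2.01% of all tested genes passed, 0.921% higher and 1.09% lower (149 and 177 genes, but 94 and 224 with median-of-ratios scaling). Of the 18 sterol genes 7 fell, namely Dhcr7, Cyp51, Idi1, Lss, Msmo1, Hsd17b7 and Fdps, and Stard4 fell among the carriers and regulators. All 18 sterol genes had a log2 fold change below 0, with a median of -0.81 beside 0.14 for all tested genes. Of the 18, 16 were at an unadjusted p under 0.05 (limma), as were 3220 of all 16180 tested genes. In 17 of the 18 both TGFb1 with BMP4 libraries lay below both TGFb1 libraries, as they did for 14.4% of all genes, and the exception was Ebp.

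Dhcr7 had 32.0 and 31.6 CPM in TGFb1 with BMP4 libraries, against 77.6 and 75.5 CPM in TGFb1 libraries, a log2 fold change of -1.24 ± 0.12 (adjusted p = 0.0124, limma). Idi1 had 19.6 and 19.0 CPM in TGFb1 with BMP4 libraries, against 38.4 and 43.9 CPM in TGFb1 libraries (-1.05 ± 0.13, adjusted p = 0.0206, limma). Cyp51 had 122 and 106 CPM in TGFb1 with BMP4 libraries, against 221 and 235 CPM in TGFb1 libraries (-1.0 ± 0.12, adjusted p = 0.0188, limma). In these 3 genes the TGFb1 with BMP4 libraries were the lower pair, with no overlap. Stard4 had 30.7 and 30.3 CPM in TGFb1 with BMP4 libraries, against 52.5 and 56.5 CPM in TGFb1 libraries (-0.81 ± 0.11, adjusted p = 0.0225, limma). Lss changed by -0.79 (adjusted p = 0.0227, limma), Hsd17b7 by -0.77 (adjusted p = 0.0466, limma), Msmo1 by -0.73 (adjusted p = 0.0422, limma) and Fdps by -1.04 (adjusted p = 0.0475, limma).

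No fatty acid gene passed in limma for this comparison: 0 of 10 were called, with a median log2 fold change of -0.54. Of the 10, 5 were at an unadjusted p under 0.05 (limma), beside 3220 of all 16180 tested genes. Acss2 had 199 and 152 CPM in TGFb1 with BMP4 libraries, against 342 and 250.5 CPM in TGFb1 libraries, and Scd2 had 891 and 800.3 CPM in TGFb1 with BMP4 libraries, against 1366 and 1399 CPM in TGFb1 libraries. Both were lower without overlap, as were 7 of the 10, beside 14.4% of all tested genes. Srebf2 and Srebf1 did not pass, with log2 fold changes of -0.07 and 0.22.

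With the replicate block 21 members fell and 0 rose, where 6.93% of all genes passed, 3.55% higher and 3.38% lower: 14 sterol genes, Stard4, Insig1, and the fatty acid genes Me1, Acly, Scd2, Fasn and Acss2, with the added calls between an adjusted p of 0.00865 for Nsdhl and 0.0480 for Fasn. Fitted on these 4 libraries alone, 0 members and 0 of all genes passed in limma (3046 genes at an unadjusted p under 0.05), the number of members called was 1 without TGFb1 replicate 1 or either inhibitor library and 0 without TGFb1 replicate 2 or either TGFb1 with BMP4 library, and median-of-ratios scaling ended the calls of Fdps and Msmo1 (adjusted p = 0.0556 and 0.0517).

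TGFb1 with BMP4 was also compared with BMP4 and inhibitor, the setting that shares BMP4. Of 33 members 17 passed, all lower, which is 51.5% of the members, where 28.2% of all tested genes passed, 17.3% higher and 10.9% lower (2797 and 1759 genes, but 1927 and 2074 with median-of-ratios scaling). In the sterol branch 12 of 18 fell, with a median log2 fold change of -0.97 beside 0.12 for all tested genes, and the fatty acid genes that fell were Me1 and Elovl6. Cyp51 had 122 and 106 CPM in TGFb1 with BMP4 libraries, against 300.0 and 336 CPM in BMP4 with inhibitor libraries (-1.47 ± 0.12, adjusted p = 0.000667, limma). Hmgcs1 had 243 and 190.2 CPM in TGFb1 with BMP4 libraries, against 701 and 541 CPM in BMP4 with inhibitor libraries (-1.51 ± 0.19, adjusted p = 0.00266, limma). Elovl6 had 22.8 and 19.0 CPM in TGFb1 with BMP4 libraries, against 77.0 and 53.5 CPM in BMP4 with inhibitor libraries (-1.58 ± 0.24, adjusted p = 0.00486, limma). In each gene the TGFb1 with BMP4 libraries were the lower pair with no overlap.

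Among the regulators, Stard4 and Insig1 fell by 1.29 and 1.59 on the log2 scale, and Srebf2 was at the threshold (-0.47 ± 0.14, adjusted p = 0.04999, limma), a call lost with median-of-ratios scaling (adjusted p = 0.0606). This comparison and the preceding ones share libraries, so their values are not independent. With the replicate block Nsdhl, Acly and Scd2 also fell (adjusted p = 0.0188, 0.0292 and 0.0165), Acss2 rose (adjusted p = 0.00987), and 41.1% of all genes passed, 25.7% higher and 15.4% lower.

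BMP4 with inhibitor, compared with inhibitor alone, changed few members. Of 33, 3 passed, all lower (9.09% of the members, where 8.41% of all tested genes passed, 5.49% higher and 2.91% lower). Lss had 176 and 167 CPM in BMP4 with inhibitor libraries, against 294 and 273 CPM in inhibitor libraries (log2 fold change -0.72 ± 0.11, adjusted p = 0.0130, limma). Pmvk had 55.3 and 53.4 CPM in BMP4 with inhibitor libraries, against 106 and 85.3 CPM in inhibitor libraries (-0.79 ± 0.18, adjusted p = 0.0481, limma). Stard4 had 78.1 and 73.8 CPM in BMP4 with inhibitor libraries, against 118 and 104 CPM in inhibitor libraries (-0.54 ± 0.11, adjusted p = 0.0320, limma). The 3 genes that passed were lower in both BMP4 with inhibitor libraries than in both inhibitor libraries.

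The median log2 fold change was -0.13 over the sterol genes, 0.09 over the fatty acid genes and 0.02 over all tested genes. Scd1 had 276 and 188 CPM in BMP4 with inhibitor libraries, against 93.5 and 84.6 CPM in inhibitor libraries, and it missed the threshold (1.35 ± 0.32, adjusted p = 0.0510, limma). Hmgcs1 had 701 and 541 CPM in BMP4 with inhibitor libraries, against 708 and 557 CPM in inhibitor libraries, which overlap. In limma 0 of 10 fatty acid genes passed and 2 were at an unadjusted p under 0.05, while Scd1 rose with median-of-ratios scaling (adjusted p = 0.0423) and with the compared groups alone (adjusted p = 0.0334), and with the replicate block Scd1 and Scd2 rose (adjusted p = 0.0260 and 0.0491), beside 21.6% of all genes (11.8% higher and 9.85% lower). Median-of-ratios scaling ended the calls of Pmvk and Stard4 (adjusted p = 0.0722 and 0.0501), and the number of members called was 0 without BMP4 with inhibitor replicate 1 or either inhibitor library, and 5 without BMP4 with inhibitor replicate 2.

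Whether BMP4 acted differently with TGFb1 than with the inhibitor was tested as an interaction. Of 33 members 1 passed, Dhcr7, lower (1.29% of all tested genes passed, 0.297% higher and 0.989% lower). Dhcr7 was 1.24 lower on the log2 scale in TGFb1 with BMP4 libraries than in TGFb1 libraries, while it had 84.0 and 101 CPM in BMP4 with inhibitor libraries, against 98.6 and 111 CPM in inhibitor libraries. The difference of the 2 effects was -1.06 ± 0.17 (adjusted p = 0.0475, limma). All 18 sterol genes and 9 of 10 fatty acid genes had an interaction below 0, with medians of -0.63 and -0.60 beside 0.12 for all tested genes. The exception was Fads1. With the replicate block 8 members passed, all lower, where 6.90% of all genes did (2.65% higher and 4.26% lower), and the added genes were Idi1, Cyp51, Scd2, Tm7sf2, Acat2, Nsdhl and Acss2 (adjusted p = 0.0349, 0.0407, 0.0271, 0.0379, 0.0439, 0.0255 and 0.0420). The call of Dhcr7 held without BMP4 with inhibitor replicate 2 and was lost without each of the other 7 libraries.

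Set side by side, the summed CPM of the sterol branch and of the fatty acid branch ordered the groups differently. The 18 sterol genes summed to 3183 and 2867 CPM in BMP4 with inhibitor libraries, 2491 and 2367 CPM in TGFb1 libraries, 1590 and 1276 CPM in TGFb1 with BMP4 libraries, and 3749 and 3255 CPM in inhibitor libraries. The 10 fatty acid genes summed to 3461 and 2517 CPM in BMP4 with inhibitor libraries, 3150 and 3138 CPM in TGFb1 libraries, 2207 and 2082 CPM in TGFb1 with BMP4 libraries, and 2801 and 2134 CPM in inhibitor libraries. For the sterol sum every group was apart from every other, in the order TGFb1 with BMP4, TGFb1, BMP4 with inhibitor and inhibitor, from low to high. For the fatty acid sum the inhibitor libraries overlapped those of TGFb1 with BMP4 and of BMP4 with inhibitor, and the TGFb1 libraries lay above the inhibitor libraries and within the range of BMP4 with inhibitor. The sterol to fatty acid ratio was 0.92 and 1.14 in BMP4 with inhibitor libraries, 0.791 and 0.754 in TGFb1 libraries, 0.72 and 0.613 in TGFb1 with BMP4 libraries, and 1.34 and 1.53 in inhibitor libraries. The inhibitor libraries thus had the highest ratios. These sums are not per length, so long and abundant genes weigh most in them. Scd2 alone averaged 1353 CPM under BMP4 with inhibitor, 1383 under TGFb1, 846 under TGFb1 with BMP4 and 914 under inhibitor. Mean fatty acid sums were 2989, 3144, 2144 and 2468 CPM, the same order of groups. No test was made of these sums, which are given as a description.

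**Figure D4:**
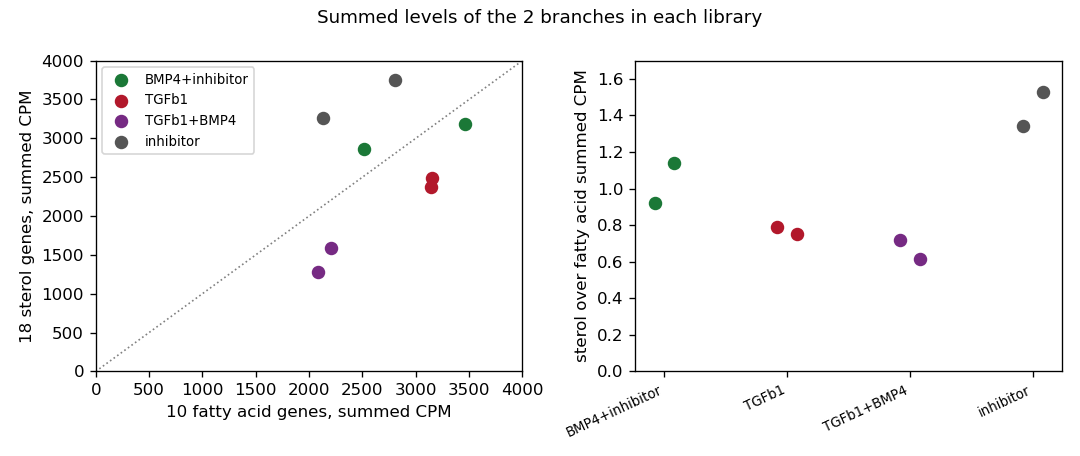
Summed CPM of the 18 sterol genes (y axis) against the 10 fatty acid genes (x axis) in each library on the left, with a dotted line of equal sums, and their ratio by group on the right. The sterol sum averaged 3025 ± 223 CPM under BMP4 with inhibitor, 2429 ± 87.7 under TGFb1, 1433 ± 222 under TGFb1 with BMP4 and 3502 ± 349 under inhibitor (SD, n = 2 each), and the fatty acid sum shows no such order.

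Other genes of lipid metabolism, taken as lists rather than by their change, are given for context, and their counts are read against the 27.6% of all tested genes that rose and the 18.4% that fell under TGFb1 with BMP4 relative to inhibitor (35.2% and 23.7% with the replicate block). Of 3 genes of SREBP processing and retention, 2 rose and 0 fell under TGFb1 with BMP4 relative to inhibitor, without and with the block, and 2 were at an unadjusted p under 0.05 in limma. Mbtps1, the site-1 protease that cleaves SREBPs, had 239 and 242 CPM in TGFb1 with BMP4 libraries, against 83.3 and 96.8 CPM in inhibitor libraries (log2 fold change 1.41 ± 0.10, adjusted p = 0.000274, limma). Insig2, the INSIG gene less dependent on SREBPs than Insig1, had 62.0 and 66.3 CPM in TGFb1 with BMP4 libraries, against 30.1 and 33.9 CPM in inhibitor libraries (0.98 ± 0.11, adjusted p = 0.00101, limma). The libraries were apart in both genes, so Insig2 was higher where Insig1 was lower. Mbtps2, the site-2 protease, did not pass in this comparison but fell under TGFb1 alone (-0.48 ± 0.16, adjusted p = 0.0497, limma).

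Of 8 tested LXR targets and sterol efflux genes, which cells raise when oxysterols accumulate, 4 rose and 2 fell in the same comparison (5 and 2 with the block). Abca1, the cholesterol exporter, had 74.6 and 134 CPM in TGFb1 with BMP4 libraries, against 4.10 and 4.50 CPM in inhibitor libraries (4.25 ± 0.28, adjusted p = 0.000198, limma). Abca1 had 58.3 and 76.3 CPM in TGFb1 libraries and 21.8 and 20.1 CPM in BMP4 with inhibitor libraries, so all 3 treated groups were above the inhibitor libraries. Abcg1, another exporter and LXR target, moved the other way, with a log2 fold change of -0.63 ± 0.21 (adjusted p = 0.0466, limma). Mylip, an LXR target that degrades lipoprotein receptors, rose by 2.82 ± 0.37 (adjusted p = 0.00174, limma).

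Of 21 tested genes of further fatty acid elongation and activation, 2 rose and 8 fell (4 and 9 with the block). The share called in either direction was near the 46.0% of all tested genes. Falls outnumbered rises in this list, while over all tested genes 27.6% rose and 18.4% fell. Elovl1, an elongase of very long chains used in barrier lipids, had 119 and 109.9 CPM in TGFb1 with BMP4 libraries, against 648 and 548 CPM in inhibitor libraries (-2.37 ± 0.17, adjusted p = 0.000257, limma). Mid1ip1, a cofactor of acetyl-CoA carboxylase, had 69.6 and 65.2 CPM in TGFb1 with BMP4 libraries, against 279 and 272 CPM in inhibitor libraries (-2.02 ± 0.11, adjusted p = 0.000127, limma). Acsl3, an acyl-CoA synthetase, moved the other way, by 1.82 ± 0.15 (adjusted p = 0.000359, limma). Of 9 genes that use isoprenoids for other products, 0 rose and 3 fell, and 6 were at an unadjusted p under 0.05 in limma. The share called in either direction was below the 46.0% of all tested genes, of which 27.6% rose and 18.4% fell. With the block 1 rose and 4 fell. Coq2, of ubiquinone synthesis, had 30.4 and 34.3 CPM in TGFb1 with BMP4 libraries, against 53.5 and 66.2 CPM in inhibitor libraries (-0.86 ± 0.20, adjusted p = 0.0151, limma).

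**Figure D5:**
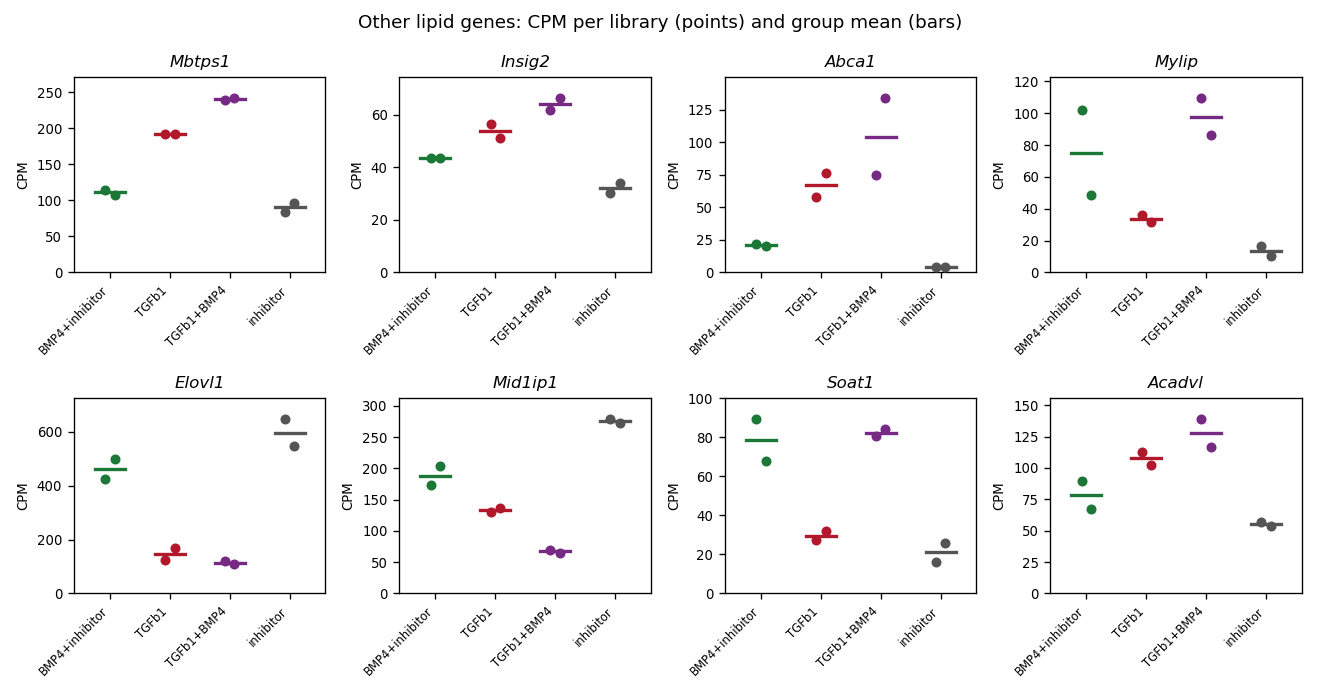
CPM per library (points) and group mean (bars) of lipid genes outside the 33. Mbtps1 is highest in the TGFb1 with BMP4 libraries, at 239 and 242 CPM, where Elovl1 and Mid1ip1 are lowest, and Abca1 is above the inhibitor libraries in every treated library.

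Other features of the libraries are given for context, and whether they varied with these genes was not tested. Inferred reads per library were 28600000 to 43600000, and the 10 most abundant genes took 3.36 to 4.69% of a library. Summed CPM of 9 squamous epithelial markers was 14756 to 25826 over all libraries, so the labelled epithelium was present throughout. Under TGFb1 with BMP4 relative to inhibitor 2 of 9 rose and 3 fell (3 and 3 with the block). Of all tested genes 27.6% rose and 18.4% fell there (35.2% and 23.7% with the block), so the share of these markers called was near that of all genes. Krt4, a keratin of differentiated esophageal layers, had 323 and 459 CPM in TGFb1 with BMP4 libraries, against 4097 and 2824 CPM in inhibitor libraries (log2 fold change -3.14). Krt4 also fell under BMP4 with inhibitor (-2.94) but did not pass under TGFb1 alone (0.40, adjusted p = 0.325, limma). Krt13 and Trp63 had log2 fold changes of -1.30 and -0.54 under TGFb1 with BMP4, and the 2 that rose, Epcam and Krt14, had 2.14 and 0.71. Summed CPM of 9 fibroblast markers was 122 and 480.0 in BMP4 with inhibitor libraries, 1330 and 4628 in TGFb1 libraries, 1432 and 6679 in TGFb1 with BMP4 libraries, and 26.8 and 112 in inhibitor libraries. Of these markers 5 of 9 rose in each TGFb1 group relative to inhibitor (9 with the block). Of all tested genes 20.0% rose under TGFb1 and 27.6% under TGFb1 with BMP4 (26.7% and 35.2% with the block). Summed CPM of 7 muscle markers was 84.3 and 249.5 in BMP4 with inhibitor libraries, 96.9 and 347 in TGFb1 libraries, 134 and 561 in TGFb1 with BMP4 libraries, and 33.3 and 86.4 in inhibitor libraries. Of the 6 muscle markers tested, 0 passed in limma for TGFb1 with BMP4 against inhibitor (4 at an unadjusted p under 0.05, 6 higher with the block). Of 6 immune markers, whose sum was 30.8 to 148 CPM, Cd68 fell by 3.22 on the log2 scale there, and Ptprc, Adgre1 and Cd3e were under 1 CPM in every library. Of the 3 immune markers tested, 0 rose and 1 fell there, but 1 rose and 1 fell with the block. Summed CPM of 8 proliferation markers was 407 and 250.4 in BMP4 with inhibitor libraries, 75.7 and 187 in TGFb1 libraries, 54.2 and 98.0 in TGFb1 with BMP4 libraries, and 304 and 249 in inhibitor libraries. Under TGFb1 with BMP4 relative to inhibitor 8 of 8 fell, where 18.4% of all tested genes fell. Between TGFb1 with BMP4 and TGFb1, 0 of 9 fibroblast markers passed in limma (0 at an unadjusted p under 0.05), with a median log2 fold change of 0.24. Of all tested genes 2.01% passed in this comparison. Of 8 proliferation markers 0 passed (1 at an unadjusted p under 0.05), but their median log2 fold change was -1.0, beside -0.81 for the 18 sterol genes. Krt4, Krt13 and Cd68 fell there, with log2 fold changes of -3.54, -1.35 and -1.23. The part of all these markers in the sterol changes was not tested. Summed CPM of 8 adipocyte markers was 15.3 to 41.2, with Lep and Cfd at 0 in every library. Of the 8, 6 were under 1 CPM in every library (Adipoq, Plin1, Cidec, Lep, Retn and Cfd). Most of the sum was Pparg, at 12.7 to 40.7 CPM. In bulk RNA, fewer cells of a type and less RNA per cell cannot be told apart.

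In the authors' deposited table, which has 1 test per gene over all groups, 13 of 33 members (39.4%) had an FDR under 0.05, as did 22.2% of the 16180 genes tested here.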

How the data were processed

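RNA was measured in 8 libraries, 2 in each of 4 groups, per the labels' protocols with the Ovation SoLo kit on an Illumina NovaSeq. The submitters' processing notes name the builds GRCm38 and mm10 and, without roles, edgeR, HTSeq, STAR 2.5.3a and Cell Ranger 3.1.0. Whether counting used strand is not given in the sources used here. Whole numbers in the deposited table are a score, not raw counts: every library sums to 20011215 to 20013233, as reads scaled to 1 total and rounded up would, so the planned count test was replaced. The deposited CPM are these values over their total, and CPM was tested here. The authors' deposited log2 fold changes, p-values and FDR served only for a count of members under 0.05. A repeated sheet was not used.

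A gene was tested if 2 or more libraries reached 1 CPM (16180 of 52636). The two-sided test was limma 3.58.1 with a trend, run in R 4.3.3 on log2(CPM + 1), with group as the single term over all 8 libraries and 4 residual degrees of freedom. Benjamini-Hochberg adjustment ran over all tested genes, separately for the 6 comparisons, and the threshold was 0.05. Log2 fold changes on this scale understate changes of low genes. The share of all tested genes without overlap is given only for lower genes in TGFb1 with BMP4 against TGFb1. In other comparisons lack of overlap is a description. Named genes were the called members and regulators, with values per library for at most the 8 of smallest adjusted p per comparison and for members chosen to show contrasts, picked after their values were seen, plus up to 3 called genes per other list. The members and lists were chosen with earlier results of these data known. On simulated data for 15763 genes, 65 of 100 genes changed 2-fold, 100 of 100 changed 4-fold and 5 of 15563 unchanged genes were called. The simulated libraries were independent at a dispersion of 0.03, with few genes changed and no deviation shared by replicate number. The real libraries differ in both respects, so these counts do not give the error rate or power of the calls here.

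The labels number the replicates without saying what a number shares. Same-numbered libraries deviated together from their group means (correlations of 0.32 to 0.74 over 6 pairs of groups), so results of a fit with a replicate block are printed beside the calls it changes. Gene positions are GENCODE M21 on GRCm38 (99.56% of IDs matched), and overlap was computed over exon bases and 50-base words. Depth was 28600000 to 43600000 reads per library, inferred from low values. Alternatives were median-of-ratios scaling, no filter, a filter of 1 CPM in 4 libraries, a pseudocount of 0.1, the replicate block, the compared groups alone, and each library left out.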

Additional observations from a re-analysis of the deposited data

Results flagged for a closer look

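The effect of BMP4 on Dhcr7 differed between the settings with and without TGFb1 by a test of the difference itself, which 1 member passed, or 8 with the replicate block. The effect with TGFb1 minus the effect with inhibitor was -1.06 ± 0.17 on the log2 scale (SE, adjusted p = 0.0475, limma interaction; 0.0170 with the replicate block). Dhcr7 was lower in 2 of 2 TGFb1 with BMP4 libraries, at 32.0 and 31.6 CPM, against 77.6 and 75.5 CPM in TGFb1 libraries. It had 84.0 and 101 CPM in BMP4 with inhibitor libraries, against 98.6 and 111 CPM in inhibitor libraries. With no filter or a pseudocount of 0.1 the call was lost, and over the left-out libraries the adjusted p was 0.0466 to 0.17.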

How the results depend on the processing

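Of 67 calls of members in the 6 comparisons, 0 changed direction under any alternative and 32 held with each library left out. Members called for TGFb1 with BMP4 against inhibitor (21) and against BMP4 with inhibitor (17) stayed within 1.5 times under every alternative, at 15 to 21 and 14 to 17 over the left-out libraries. For TGFb1 against inhibitor they numbered 5 to 18 over the left-out libraries, in place of 17. For BMP4 with inhibitor against inhibitor they numbered 1 with no filter, 5 with the replicate block and 0 to 5 over the left-out libraries, in place of 3. For TGFb1 with BMP4 against TGFb1 they numbered 1 with no filter, 21 with the replicate block, 0 with the compared groups alone and 0 to 6 over the left-out libraries, in place of 8. For the interaction they numbered 0 with no filter, 0 with a pseudocount of 0.1, 8 with the replicate block and 0 to 2 over the left-out libraries, in place of 1. The block ended no call of a member. Without a filter more genes are tested, and other causes were not tested. A group with a library left out keeps 1 library, assumed to vary like the other groups.

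Over all tested genes, calls for BMP4 with inhibitor against inhibitor numbered 1360, but 751 with no filter, 3502 with the block, 806 with the compared groups alone and 170 to 2246 over the left-out libraries. For TGFb1 with BMP4 against TGFb1 the 326 calls became 80, 1121, 0 (3046 at an unadjusted p under 0.05, limma) and 12 to 313 under the same settings, and for the interaction the 208 became 27 with no filter, 1117 with the block and 0 to 557 over the left-out libraries. For TGFb1 against inhibitor (6471) and TGFb1 with BMP4 against inhibitor (7449) the left-out libraries gave 3079 to 6528 and 4429 to 7533, and for TGFb1 with BMP4 against BMP4 with inhibitor (4556) they gave 2433 to 3888 and the compared groups alone gave 2507. Depth limits the lowest members little, since all were at 1 CPM or more in every library.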

Other observations

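Fatty acid oxidation genes degrade what the fatty acid branch makes. Of 15 tested, 8 rose and 0 fell in limma under TGFb1 with BMP4 relative to inhibitor, with 10 at an unadjusted p under 0.05, where 27.6% of all tested genes rose and 18.4% fell. With the replicate block 12 rose and 1 fell. Acadvl, the dehydrogenase of very long chains, had 139 and 117 CPM in TGFb1 with BMP4 libraries, against 56.9 and 53.9 CPM in inhibitor libraries (log2 fold change 1.19 ± 0.16, adjusted p = 0.002, limma). The libraries did not overlap.

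Among sterol storage and transport genes, 2 of 9 rose and 2 fell in the same comparison (5 and 3 with the block), a share called near the 46.0% of all tested genes. Soat1, which esterifies cholesterol for storage, had 80.7 and 84.3 CPM in TGFb1 with BMP4 libraries, against 15.9 and 26.0 CPM in inhibitor libraries (1.97 ± 0.24, adjusted p = 0.00136, limma). Soat1 also rose under BMP4 with inhibitor, with 89.4 and 68.0 CPM against 15.9 and 26.0 CPM in inhibitor libraries (1.89 ± 0.24, adjusted p = 0.00913, limma). TGFb1 libraries had 27.3 and 32.0 CPM of Soat1, below both groups that received BMP4. Osbpl2, an oxysterol-binding transfer protein, fell (-0.91 ± 0.08, adjusted p = 0.000489, limma), at 99.8 and 98.3 CPM in TGFb1 with BMP4 libraries, against 183 and 191 CPM in inhibitor libraries. Soat2 also fell, opposite to Soat1, from 10.6 and 17.7 CPM in inhibitor libraries to 0.4 and 1.5 CPM in TGFb1 with BMP4 libraries (-2.97 ± 0.76, adjusted p = 0.0193, limma).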
